A study of Caenorhabditis elegans with 8 samples.

Results

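The genes described here are 9 Caenorhabditis elegans genes that break down propionate, out of 19971 protein-coding genes of the nuclear chromosomes. They are acdh-1, ech-6, hach-1, hphd-1 and alh-8 of the propionate shunt, and pcca-1, pccb-1, mce-1 and mmcm-1 of the route that depends on vitamin B12. The set was chosen by a measured value, since it was picked because acdh-1 has a peak of the transcription factor SKN-1 in each of the 4 deposited peak lists, and the other 8 genes were added as the rest of the pathway. That acdh-1 has peaks in all 4 lists is therefore a description of how the set arose and not a finding. For each gene every peak summit inside the gene or within 2000 bp of it was listed.

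Propionate arises when worms degrade branched-chain amino acids and odd-chain fatty acids, and it is toxic when it accumulates. With enough vitamin B12, propionyl-CoA is carboxylated, epimerised and rearranged to succinyl-CoA, the last step by a mutase that needs the vitamin. When B12 is scarce the worm turns on the shunt, which oxidises propionyl-CoA to acetyl-CoA without it, and acdh-1 is a widely used reporter of that state. The bacterium OP50, on which these animals were fed, is known as a diet low in B12. SKN-1, the worm relative of mammalian Nrf2, is best known for oxidative stress, detoxification and metabolic genes.

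Chromatin immunoprecipitation with sequencing was done on whole animals raised at 20°C that carried GFP-tagged SKN-1, either wild-type (WT) or with the allele SKN-1gf(lax188), which makes SKN-1 overactive (GF). Both genotypes share the tag. A Chromotek antibody was used in 2 samples of each genotype, numbered 1 and 2, and each of these 4 samples has its own list. The 4 samples labelled as without antibody were not analysed here. The sources used here give neither the age, stage and sex of the animals nor whether replicates came from separate cultures. The p-value below therefore measures only the spread between these samples, which may be technical. Whole animals mix tissues, so a peak does not say in which cells its signal arose. The control of the peak caller is not given, so whether each peak marks specific SKN-1 binding was not tested.

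The lists differed in length, with 15943, 29541, 25007 and 905 peaks in WT 1, WT 2, GF 1 and GF 2. GF 2 stands apart, and results that need a peak in GF 2 are given without it too. The read depth is unknown, and a gene without a summit has no peak that passed the authors' threshold, which does not show that SKN-1 was absent. The names given to single peaks in WT 2 are those of WT replicate 1, so that list is identified by its sample record. Fold enrichment is the authors' value for each peak over the background of their peak caller and has no replicate error. It is used here to rank peaks within a list.

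In 3 of the 4 lists nearly every gene of the pathway had a summit, and the short list kept acdh-1, hphd-1 and alh-8. WT 1 held a summit at 7 of the 9 genes, where 58.6% of all protein-coding genes had 1 by the same rule. WT 2 held summits at 8 of 9 against 81.8% of coding genes, and GF 1 at 8 of 9 against 75.6%. These shares leave little room above the background in the long lists. GF 2 held a summit at 3 of 9 genes against 7.06% of coding genes.

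The lists were also combined. Both WT lists held a summit at 7 of the 9 genes (56.1% of coding genes), and both GF lists at 3 (6.62%). All 4 lists held a summit at 3 (5.65%), of which acdh-1 was the gene the set was built on, so that 2 of the 8 added genes, hphd-1 and alh-8, joined it. Without GF 2, the 3 long lists shared a summit at 7 of 9 genes (53.3%), the exceptions being ech-6 and mce-1. Among 11316 coding genes whose span lies within that of the members, the shares were close to those of all coding genes, at 56.4%, 81.1%, 74.3% and 6.50% in WT 1, WT 2, GF 1 and GF 2. Of the 5 shunt genes, 4, 5, 5 and 3 had a summit in WT 1, WT 2, GF 1 and GF 2, and of the 4 genes of the B12-dependent route, 3, 3, 3 and 0. In GF 2 a summit was rare, at 7.06% of all coding genes and 1.72% of those on chromosome X, where pcca-1 and pccb-1 lie. The shunt count includes acdh-1, which chose the set, so these counts do not tell the branches apart.

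**Figure D1:**
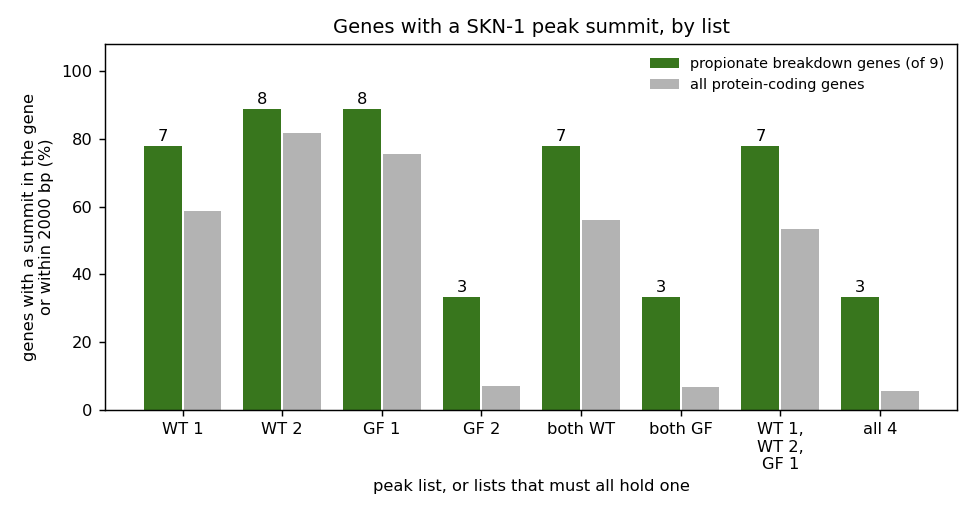
Share of genes with a peak summit in the gene or within 2000 bp (y axis, percent) in each list and in combinations of lists (x axis); green bars are the 9 propionate breakdown genes, with their number above, and grey bars all 19971 protein-coding genes. The green bars stand at 7, 8, 8 and 3 genes in the single lists, beside grey bars of 58.6%, 81.8%, 75.6% and 7.06%.

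The first shunt enzyme, the acyl-CoA dehydrogenase acdh-1 on chromosome I, lay under the strongest peaks of the whole pathway. WT 1 had a peak from 6498011 to 6499940 with its summit at 6499038 and a fold of 2.47. In WT 2 the peak ran from 6497898 to 6499892 (summit 6498980, fold 2.50). GF 1 joined the locus into a single peak from 6497440 to 6500016 (summit 6499426, fold 4.65), and GF 2 had a peak from 6498108 to 6499973 (summit 6499663, fold 2.38). Ranked by fold within its own list, the peak was number 92 of 15943 in WT 1, 161 of 29541 in WT 2, 4 of 25007 in GF 1 and 18 of 905 in GF 2. Because the lists differ in length, these ranks show no order of the genotypes.

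These acdh-1 peaks were broad. They measured 1930, 1995, 2577 and 1866 bp in WT 1, WT 2, GF 1 and GF 2, where the median peak measured 255, 293, 276 and 263 bp, and each was wider than 99% of the peaks of its list (percentiles 99.8, 99.3, 99.7 and 99.1). The summits of the WT lists lay 58 bp apart, and those of the GF lists at higher positions, the one of GF 2 beyond the end of the gene as placed here. A smaller peak at the other end of the gene was found in WT 1 (summit 6497536, fold 1.66) and WT 2 (6497525, fold 1.39), 11 bp apart. GF 1 covered that position with its single peak, and GF 2 had no peak there. The neighbouring gene C55B7.3 shares 4 of the 6 acdh-1 summits, from all 4 lists, and uri-1 shares 2, from the WT lists.

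The dehydrogenase of the shunt that acts on hydroxypropionate, hphd-1 on chromosome II, had the next strongest peak in WT 1, WT 2 and GF 2, while in GF 1 alh-8 was just above it. A broad peak lay over the gene in the long lists. It ran from 12994056 to 12995788 in WT 1 (fold 2.08, rank 351), from 12994137 to 12996210 in WT 2 (1.95, rank 1296) and from 12994042 to 12996061 in GF 1 (2.22, rank 809). GF 2 split the same stretch into 2 weak peaks, with summits at 12994336 (fold 1.44) and 12994842 (1.48), below the middle of that list by fold. Summits within the broad peak differed, at 12994263 in WT 1, 12995467 in WT 2 and 12995611 in GF 1. A separate peak near the edge of the window had closely matching summits at 12992430 in WT 1 (fold 1.71), 12992396 in WT 2 (1.91) and 12992398 in GF 1 (1.54), within 34 bp. WT 2 had further weak summits at 12993285 (fold 1.24) and 12997123 (1.32). The worm cyclin D gene cyd-1 shares 7 of the 10 hphd-1 summits, from all 4 lists.

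The semialdehyde dehydrogenase gene alh-8, which serves the last shunt step and also lies on chromosome II, had peaks over much of the gene in the long lists. WT 1 resolved them into 3 with summits at 11729716, 11730287 and 11731308 (folds 1.55, 1.61 and 1.65). WT 2 gave 2 with summits at 11729938 and 11730907 (1.69 and 1.70), and GF 1 a single peak from 11729418 to 11730991 with a fold of 2.24 at rank 756. The GF 2 peak was small, from 11731156 to 11731376 (summit 11731222, fold 1.47). It lay 86 bp from the nearest WT 1 summit, at the end of the gene, and counting each summit only for its nearest gene gave it to the neighbour F13D12.8. Weaker flanking summits were found near 11727566 in WT 1 (fold 1.27) and 11727537 in WT 2 (1.34), and at 11728214 (1.65) and 11733089 (1.59) in WT 2 alone.

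The remaining shunt genes, ech-6 and hach-1 on chromosome III, had peaks of a fold no higher than 1.62. The enoyl-CoA hydratase gene ech-6 had a summit inside the gene in WT 2 (9752181, fold 1.45) and in GF 1 (9752190, fold 1.46), 9 bp apart, and a flanking summit in WT 2 (9750908, fold 1.41). WT 1 and GF 2 had no summit within 2000 bp of it. The hydrolase gene hach-1 had summits in the 3 long lists. A small peak recurred with summits at 5556803 in WT 1 (fold 1.23), 5556790 in WT 2 (1.42) and 5556801 in GF 1 (1.44), within 13 bp. The WT 1 peak there was among the weakest of its list, at rank 15875 of 15943 by fold. The strongest hach-1 peak in each list was at 5555781 in WT 1 (1.38), 5556128 in WT 2 (1.62) and 5556201 in GF 1 (1.47). GF 1 had further summits at 5555681 (1.44) and, on the flank, at 5559262 (1.42). All 8 hach-1 summits are shared with the neighbouring gene rpc-2.

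**Figure D2:**
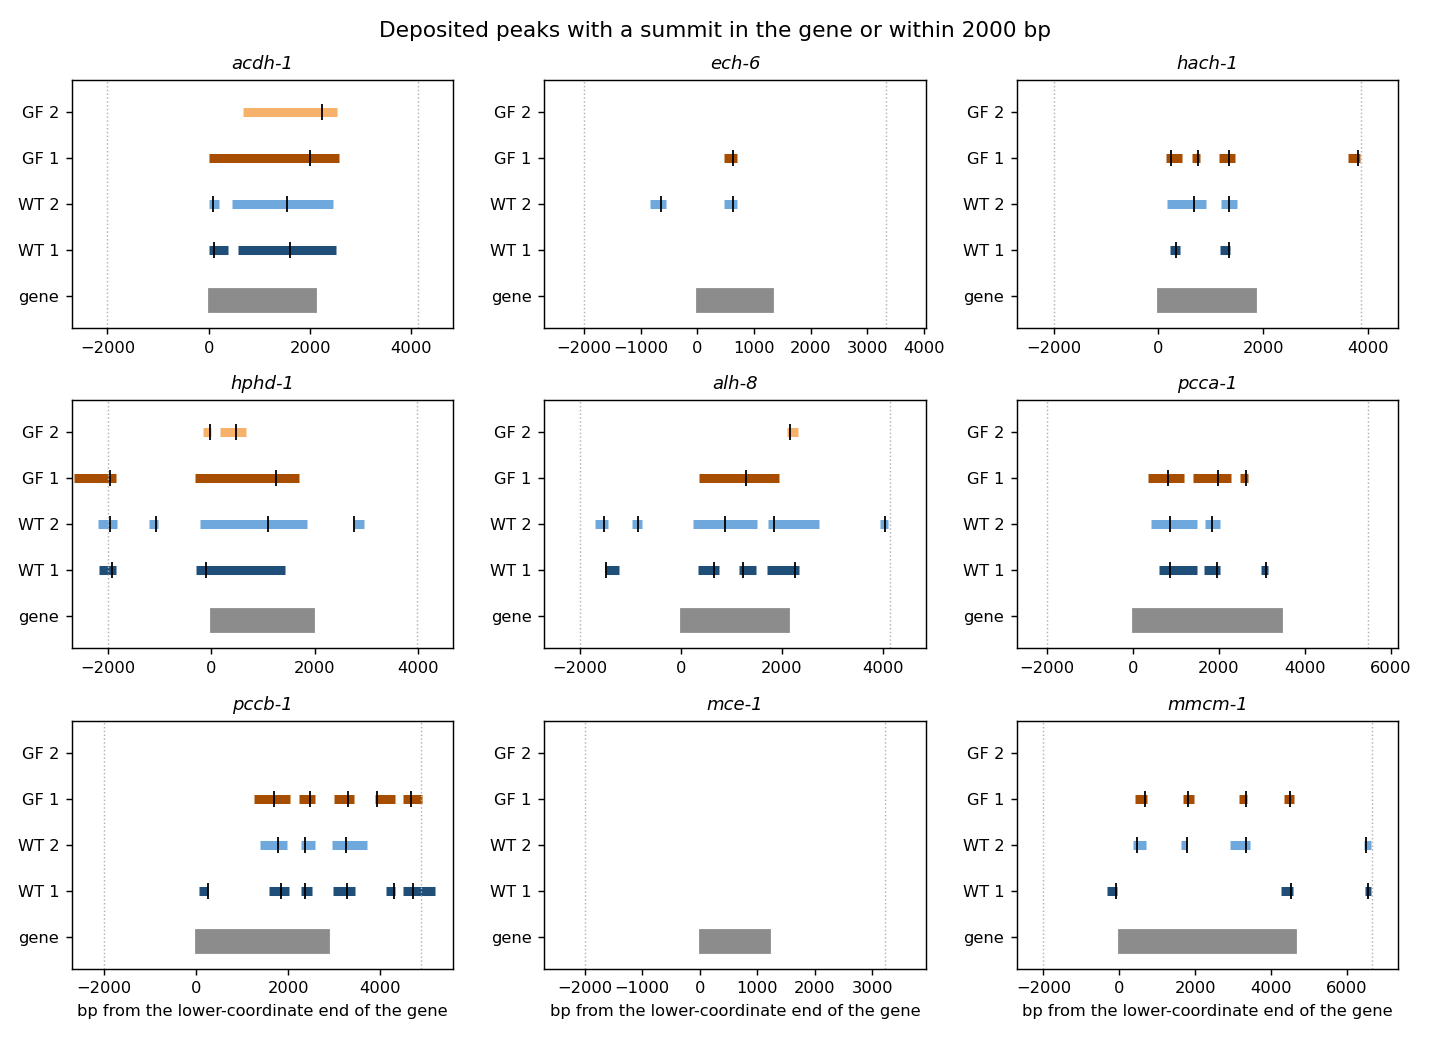
Deposited peaks (bars) and their summits (black ticks) at each of the 9 genes in WT 1, WT 2, GF 1 and GF 2 (y axis), by distance from the lower-coordinate end of the gene in bp (x axis); the grey box is the gene as placed from the gene table and the dotted lines mark 2000 bp on either side. Peaks run over most of acdh-1, hphd-1 and alh-8 in the long lists, GF 2 has peaks at these 3 genes, and mce-1 has none.

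On the B12-dependent route, the genes of both propionyl-CoA carboxylase subunits lie on chromosome X and had peaks in the 3 long lists. The alpha subunit gene pcca-1 had a peak inside the gene with summits at 7658367 in WT 1 (fold 1.57), 7658371 in WT 2 (1.21) and 7658325 in GF 1 (1.53), within 46 bp. Its second peak had summits at 7659471 in WT 1 (1.60), 7659355 in WT 2 (1.63) and 7659505 in GF 1 (1.48). Single summits followed at 7660613 in WT 1 (1.33) and 7660145 in GF 1 (1.45). All 8 pcca-1 summits lay inside the gene. The beta subunit gene pccb-1 had 14 summits, more than any other gene of the set. A peak inside it had summits at 3091392 in WT 1 (fold 1.61), 3091321 in WT 2 (1.48) and 3091242 in GF 1 (1.81). A further inside peak had summits at 3091908 (1.47), 3091920 (1.40) and 3092014 (1.45) in the same order. Outside the gene, 370 to 406 bp from it, another peak had summits at 3092840 in WT 1 (1.63), 3092807 in WT 2 (1.54) and 3092843 in GF 1 (1.67), within 36 bp. The remaining summits were in WT 1 at 3089806 (1.31), 3093846 (1.34) and 3094267 (1.44) and in GF 1 at 3093481 (1.39) and 3094214 (1.44). The hedgehog-related gene wrt-2 shares 13 of the 14 pccb-1 summits. GF 2 had no summit at either gene, and held 64 of its 905 peaks (7.07%) on chromosome X, against 21.8% of the peaks of WT 1, 16.5% of those of GF 1 and 3556 of the 29541 peaks of WT 2. The part of this in the missing carboxylase summits was not tested. By the same rule 1.72% of coding genes on X had a summit in GF 2, against 7.91% on the other chromosomes.

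The last enzyme of that route, methylmalonyl-CoA mutase mmcm-1 on chromosome III, had scattered weak peaks in the long lists and none in GF 2. Summits recurred at 3906370 in WT 2 (fold 1.52) and 3906381 in GF 1 (1.45), and at 3907558 in WT 1 (1.37) and 3907545 in GF 1 (1.78). Another pair lay at 3904815 in WT 2 (1.29) and 3904848 in GF 1 (1.35). The WT lists shared a flanking pair at 3909587 in WT 1 (1.44) and 3909541 in WT 2 (1.32). Single summits lay at 3902961 in WT 1 (1.36), 3903498 in WT 2 (1.30) and 3903727 in GF 1 (1.49). No mmcm-1 summit was shared within 100 bp by the 3 long lists.

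The epimerase gene mce-1 on chromosome I had no summit within 2000 bp in any list, as was true of 12.2% of all coding genes. A broad peak nearby had its summit in prg-1, a Piwi Argonaute gene, and ran from 7585174 to 7588282 in WT 1 (fold 2.01), 7585176 to 7588220 in WT 2 (2.13), 7585166 to 7588348 in GF 1 (3.16) and 7585187 to 7586346 in GF 2 (1.97). GF 2 split the region, with further peaks from 7586662 to 7587507 (fold 1.497) and from 7588021 to 7588260 (1.52). The lower edge of this region reaches into the window around mce-1, so that mce-1 was counted in all 4 lists when any overlap of a peak with the window sufficed. The nearest summit of any peak lay 3382, 3377, 2798 and 2486 bp from mce-1 in WT 1, WT 2, GF 1 and GF 2, and in the GF lists it was that of the prg-1 peak.

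Other summits lay near the 2000 bp limit. Just inside were the hphd-1 summits of the long lists near 12992396, at 1932, 1966 and 1964 bp from the gene in WT 1, WT 2 and GF 1, and a hach-1 summit of GF 1 at 1944 bp. Also inside were mmcm-1 summits at 1900 bp in WT 1 and 1854 bp in WT 2, and an alh-8 summit of WT 2 at 1891 bp. The farthest pccb-1 summits lay at 1830 bp in WT 1 and 1777 bp in GF 1. Just outside were summits at 2095, 2106 and 2162 bp from alh-8 in WT 1, WT 2 and GF 1, and a WT 2 summit at 2132 bp from acdh-1. Slightly farther out were summits at 2256, 2258 and 2376 bp from hphd-1 in WT 1, WT 2 and GF 1. A WT 2 summit lay 2255 bp from pccb-1. These distances join positions from peak lists and a gene table of different genome builds and may be off by the shift between them.

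Within each list, acdh-1 had the strongest peak of the set. The percentile of its best peak by fold was 99.4, 99.5, 99.99 and 98.1 in WT 1, WT 2, GF 1 and GF 2. Next came hphd-1 in the WT lists, at 97.8 and 95.6, while in GF 1 hphd-1 (96.8) and alh-8 (97.0) were close together. For alh-8 the value was 83.8 in WT 1 and 85.0 in WT 2. In GF 2, hphd-1 and alh-8 were at 43.1 and 38.9, below the median peak of that list. The other genes with a summit lay lower and changed places between lists, as hach-1 did at 26.6 in WT 1, 77.3 in WT 2 and 32.9 in GF 1. At hach-1 the WT lists thus lay further apart than WT 2 and GF 1 did.

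**Figure D3:**
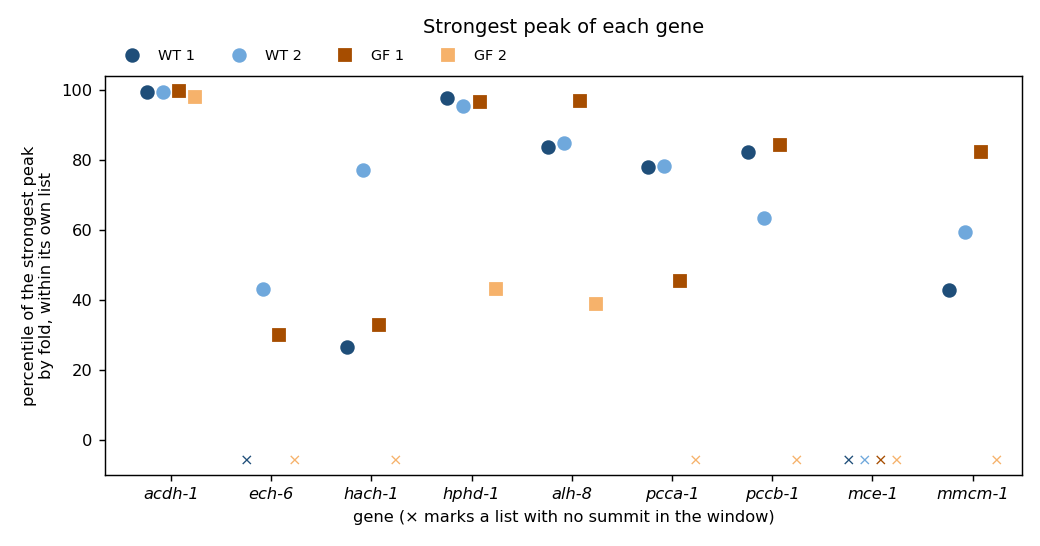
Percentile of the strongest peak of each gene by fold within its own list (y axis, 100 is the strongest peak of the list) for the 9 genes (x axis); circles are WT lists, squares GF lists, and crosses under the axis mark lists with no summit in the window. The gene acdh-1 lies above the 98th percentile in all 4 lists, and GF 2 has a point at acdh-1, hphd-1 and alh-8 alone.

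Most of the 71 summits of the set were weak. A fold of 2 was exceeded by 7 of them, at acdh-1, hphd-1 and alh-8, and 40 had a fold of 1.5 or less. The 7 include the strongest acdh-1 peak of each list, and acdh-1 chose the set. Weak peaks were as common in the whole lists. The median fold of member summits was 1.51, 1.46, 1.47 and 1.48 in WT 1, WT 2, GF 1 and GF 2. That of all peaks was 1.46, 1.47, 1.55 and 1.51 in the same order. In the whole lists 2.84%, 3.41%, 6.86% and 6.30% of peaks in WT 1, WT 2, GF 1 and GF 2 exceeded 2. The median member summit lay at percentile 60.8, 47.5, 32.9 and 41.0 in WT 1, WT 2, GF 1 and GF 2, so that as a whole these peaks were ordinary in strength.

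Peaks covered most of acdh-1, hphd-1 and alh-8 in the long lists, and little or nothing of some other members. The covered share of acdh-1 was 90.6%, 87.4%, 99.8% and 68.4% in WT 1, WT 2, GF 1 and GF 2. For hphd-1 it was 72.0%, 93.2%, 85.7% and 25.4% in the same order. The shares of alh-8 were 56.8%, 78.8% and 73.4% in the long lists and 2.01% in GF 2. In the long lists these 3 genes lay at or above the 97th percentile of coding genes by covered share (97.0 to 99.6). The carboxylase genes were covered in part, pcca-1 by 40.8%, 40.6% and 55.3% and pccb-1 by 30.7%, 30.1% and 38.4% in WT 1, WT 2 and GF 1. The shares of hach-1 were 20.3%, 56.5% and 41.9% in these lists, and those of mmcm-1 were 6.84%, 21.7% and 23.7%. For ech-6 they were 0%, 17.7% and 17.6%, and mce-1 was at 0% in all 4 lists. In GF 2 all members other than acdh-1, hphd-1 and alh-8 were at 0%. Over all 9 genes, with acdh-1 chosen for its peaks, the median was 30.7%, 40.6%, 41.9% and 0% in WT 1, WT 2, GF 1 and GF 2, where the median coding gene had 0%, 6.99%, 2.70% and 0%.

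**Figure D4:**
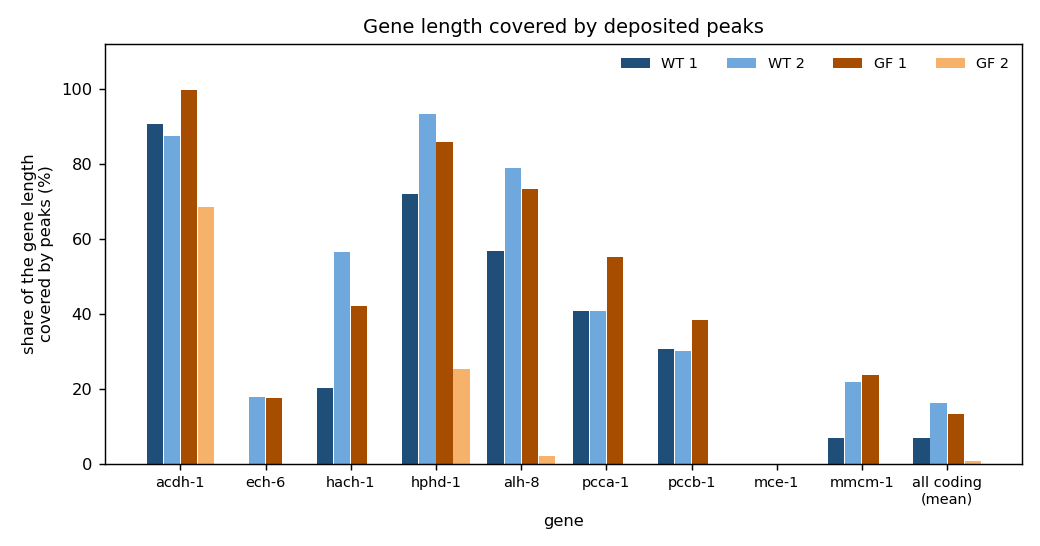
Share of the gene length covered by deposited peaks (y axis, percent) for the 9 genes and, at the right, the mean over all protein-coding genes (x axis), with a bar for each list. The bars of acdh-1, hphd-1 and alh-8 exceed 56% in the long lists, against means of 6.95%, 16.1% and 13.3% in WT 1, WT 2 and GF 1.

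In the long lists the summits lay more inside the genes than on their flanks. Of the 71, 45 were inside, or 59.1% in WT 1, 62.5% in WT 2 and 76.2% in GF 1, against 51.3%, 50.8% and 51.6% of the summits counted for all coding genes. In GF 2 it was 1 of 4 (25.0%, against 35.1%). Summits per kb of gene and window were 0.381, 0.416, 0.364 and 0.0693 in WT 1, WT 2, GF 1 and GF 2, against 0.160, 0.310, 0.258 and 0.0126 over all coding genes. The member values include acdh-1, which was chosen for its peaks, and that of GF 2 rests on 4 summits. Windows of neighbouring genes overlap in this compact genome, and 62 of the 71 summits were also within 2000 bp of another coding gene.

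A member summit in 1 long list often had a counterpart in another, as did other peaks. When summits within 100 bp of the next were joined in chains, the set had 44 positions, of which 23 were in 1 list, 15 in 2, 6 in 3 and 0 in all 4. The 6 positions of 3 lists were all in WT 1, WT 2 and GF 1, and lay at pccb-1 (3 of them), pcca-1, hach-1 and hphd-1. Of the 22 member summits in WT 1, 10 had a WT 2 summit within 100 bp (45.5%, against 60.9% of all WT 1 peaks) and 9 a GF 1 summit (40.9%, against 57.0%). In GF 1, 9 of 21 had a WT 1 summit (42.9%, against 36.3%) and 10 a WT 2 summit (47.6%, against 57.6%), so the members lay above all peaks in some pairs and below in others. Joined in chains by overlap of peaks rather than summits, 3 regions held a peak of each list, at acdh-1, hphd-1 and alh-8. At alh-8 the GF 1 and GF 2 peaks did not overlap each other and were linked through WT peaks. The share of such regions over all peaks was not computed.

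The design contrasts where the wild-type and the overactive protein bind. A mean of 7.5 of the 9 genes had a summit in the WT lists and 5.5 in the GF lists, a difference of 2 that was smaller than the gap between GF 1 and GF 2 (8 and 3 genes; two-sided exact permutation p = 1, where 0.333 is the smallest p that 2 lists against 2 allow). With each list shortened to its strongest 905 peaks by fold, the order turned, with 2 genes in WT 1 (acdh-1 and hphd-1), 1 in WT 2 (acdh-1) and 3 in both GF 1 and GF 2 (acdh-1, hphd-1 and alh-8). At that length 5.26%, 5.51%, 6.07% and 7.06% of coding genes had a summit in WT 1, WT 2, GF 1 and GF 2, so the background rose from WT to GF as well. The groups did not overlap at that length, and the exact permutation p was 0.333, the smallest possible. Without GF 2, GF 1 held a summit at the same 8 genes as WT 2. These lists therefore do not settle the order of the genotypes at these genes.

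Genes around the pathway were counted by the same rule. Of 12 genes for B12 handling and regulation, 8, 10, 9 and 4 had a summit in WT 1, WT 2, GF 1 and GF 2, where the shares of all coding genes were 58.6%, 81.8%, 75.6% and 7.06%. The nuclear hormone receptor genes nhr-10 and nhr-68, whose products are known to turn on the shunt, had none in any list. Of the other genes counted around the pathway, dbt-1, acdh-4, ech-8 and ech-9 had none either, and these 6 genes are named after their values were seen. Among all coding genes 2441 (12.2%) had no summit in any list, so the lack of a summit is not particular to these genes. All 4 lists held a summit at nhr-114, a related receptor linked to B12, at mmaa-1, which serves the mutase, at metr-1, the B12-dependent methionine synthase, and at sams-1, which makes S-adenosylmethionine. The best peak of nhr-114 had folds of 1.74, 1.85, 2.99 and 1.63 in WT 1, WT 2, GF 1 and GF 2, and that of metr-1 had 1.97, 1.95, 2.47 and 1.43. The last of these lay at percentile 29.2 of GF 2. In the same order sams-1 had 1.82, 1.83, 2.85 and 1.64, and mmaa-1 was weaker at 1.58, 1.41, 1.67 and 1.52. Folds rank peaks within a list, so they are not compared between lists. The genes cblc-1, pmp-5, sbp-1 and mdt-15 had summits in the 3 long lists. At sbp-1, a regulator of lipid genes, the best fold was 1.81 in WT 1, 2.14 in WT 2 and 2.70 in GF 1. At mdt-15 it was lower, at 1.44, 1.57 and 1.73 in the same lists.

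Neighbouring pathways were counted beside the same background of 58.6%, 81.8%, 75.6% and 7.06% of coding genes in WT 1, WT 2, GF 1 and GF 2. Of 10 genes of branched-chain amino acid breakdown, 6, 9, 9 and 1 had a summit in the same order. The isovaleryl-CoA dehydrogenase gene ivd-1 was in all 4 (folds 1.62, 1.70, 1.80 and 1.57), while bcat-1, bckd-1A, dld-1, acdh-9 and mccc-1 were in the 3 long lists. Of 7 genes that use succinyl-CoA or run the citric acid and glyoxylate cycles, 6, 7, 7 and 0 had a summit, and suca-1, sucg-1, sucl-1, sucl-2, icl-1 and dlst-1 were in the 3 long lists. Strong peaks lay at icl-1, the glyoxylate cycle enzyme gene, with folds of 2.24 in WT 1, 3.14 in WT 2 and 2.48 in GF 1, all above the 98th percentile of their list. Weaker ones lay at dlst-1, with folds of 1.30, 1.61 and 1.72 in the same lists, the first at percentile 7.87.

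Relatives of the shunt enzymes were counted beside the same shares of coding genes, 58.6%, 81.8%, 75.6% and 7.06% in WT 1, WT 2, GF 1 and GF 2. The acyl-CoA dehydrogenase family had 7, 10, 12 and 3 of 13 genes with a summit in WT 1, WT 2, GF 1 and GF 2. In addition to acdh-1, acdh-2 had a summit in all 4 lists, with best folds of 2.12, 2.66, 3.17 and 1.76 (percentiles 98.1, 99.7, 99.7 and 83.6). The 3 long lists held acdh-7, acdh-8, acdh-9, acdh-10 and acdh-13. Of these, acdh-7 and acdh-10 on chromosome X had the same number of summits and the same best fold in each list. They appear to be the same peaks counted for both genes. How reads that match several related genes were treated is not stated, so values within families are uncertain. Enoyl-CoA hydratase genes had 2, 8, 7 and 0 of 10 in the same order. Of these, ech-7 and ech-3 were in the 3 long lists. Aldehyde dehydrogenase genes had 10, 13, 12 and 3 of 13, and alh-3 and alh-4 joined alh-8 in all 4 lists, while alh-1, alh-5, alh-7, alh-10, alh-11, alh-12 and alh-13 were in the 3 long lists. The best peaks of alh-3 had folds of 1.87, 1.83, 2.18 and 1.83, and those of alh-4 had 1.43, 1.44, 1.53 and 1.64.

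Likeness to acdh-1 was measured by peak strength within each list, so the genes nearest to it have very strong peaks by construction. The comparison also rests on the acdh-1 peaks that chose the set, so it only gives names. Among 1127 other coding genes with a summit in all 4 lists and no summit shared with acdh-1, likeness was measured as the Euclidean distance between the percentiles of the best peak in the 4 lists. The nearest were ahcy-1, which encodes adenosylhomocysteinase, and dpf-3, which shares its peaks (distance 0.588; percentiles 99.1, 99.9, 99.9 and 97.8 in WT 1, WT 2, GF 1 and GF 2). They were followed by the histone genes his-59, his-60 and his-61, which share peaks with each other (0.645; 99.7, 99.98, 99.9 and 98.0). All 1128 other genes with a summit in all 4 lists entered the next count, among them C55B7.3, which shares acdh-1 peaks. Of these, 32, 61, 6 and 34 were at or above acdh-1 in WT 1, WT 2, GF 1 and GF 2. Genes that share a peak were each counted, so these are not numbers of peaks.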

How the data were processed

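Per the labels' protocols, the authors ground worm pellets, crosslinked them with formaldehyde and made libraries with a Diagenode MicroPlex kit. The submitters' processing notes name the peak caller MACS2 2.2.7.1, the aligner BWA 0.7.17, Trim Galore 0.6.4, SAMtools 1.10 and build ce10. The caller's settings and control are not given in the sources used here. The authors deposited 1 narrowPeak list per precipitated sample, with a fold enrichment (a ratio) and a -log10 q per peak. The lists hold no reads, so depth is unknown.

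Summits are the peak start plus the summit offset, written 1-based. Genes came from a RefSeq table of assembly WBcel235, another build than ce10, which gives no strand. It served only for names and for which genes lie at a summit, and the shift between builds was not measured. All 9 member names matched, as did all names of the other lists. Counting was checked on simulated summits. A motif search and printed sequences would need a genome and were not made.

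Members and lists were chosen with earlier results of these data known. Named genes are the 9 members, genes of the other lists with summits in 3 or all 4 lists, neighbours that share a member summit, and the 5 genes most like acdh-1. Outside this rule, prg-1 and the 6 pathway genes with no summit were named after their values were seen. Genotypes were compared with an exact permutation test. Python 3.11.15, NumPy 2.4.6, pandas 2.3.3 and matplotlib 3.10.9 were used. Alternatives changed the window, the summit position, the -log10 q floor, list length, the overlap rule and the lists included.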

Additional observations from a re-analysis of the deposited data

How the results depend on the processing

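Of 94 values recomputed under alternatives, 74 kept their direction and, for counts, stayed within 1.5 times the reported value. The 74 include values that could not have moved, such as the difference under the replicate blocks below. Counts in the long lists, already near all members, could not rise past that limit. Moving summits by 100 bp, or by 500 bp as added after seeing the data, changed no count by more than 1 gene. The GF 2 count of 3 fell to 1 with summits inside genes only and with a -log10 q of at least 5, and rose to 5 with a 5000 bp window. At these settings 2.65%, 4.17% and 11.3% of coding genes had a summit in GF 2, so the background moved in the same direction. The count in all 4 lists, 3, became 0 inside genes, 1 at that -log10 q and 1 with lists shortened to the shortest, where WT 1, WT 2 and GF 1 had 2, 1 and 3 genes. The share of coding genes with a summit in all 4 lists was not computed at these settings. Leaving out each list in turn gave 3 to 7 genes. Shared regions, 3 by overlap, were 0 with summits within 100 bp, 1 with the stricter overlap rule, 1 with shortened lists, and 3 to 10 when a list was left out. The difference between genotypes, 2, reversed to -1.5 with shortened lists and ranged from -0.5 (without GF 2) to 4.5 (without GF 1) when a list was left out. With the replicate number as a block, paired or crossed, the difference was 2 (exact permutation p = 1). The same means enter either way, so the difference could not change, and so few pairs cannot bring p below 0.05. Over genes, the difference between replicates in WT was correlated with that in GF (0.03 for gene presence, -0.43 for summit number). Replicate 1 had the shorter list in WT and the longer in GF, so this cannot tell whether replicate numbers pair the lists. By -log10 q, the best acdh-1 peak had rank 250, 286, 66 and 54 in WT 1, WT 2, GF 1 and GF 2. The cause of these changes was not tested. The planned promoter motif search was not run.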
